A study of Gallus gallus with 8 samples.

Results

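The genes that encode the proteasome and the ubiquitin-conjugating enzymes were compared between peripheral blood mononuclear cells (PBMC) and whole blood of the same 4 birds. Members were all named genes of the array whose symbol begins with PSMA to PSMG and a digit, or with UBE2. They numbered 48 of 7832 named genes, of which 27 belong to the proteasome and 21 are E2 enzymes or their relatives. RNA came from 2 groups, PBMC and whole blood, each with 4 samples, from male broiler chickens aged 9 weeks on a conventional diet. The PBMC had been separated on a Ficoll density gradient, and 1 single-colour microarray was hybridised per sample. Each sample is thus a mixture of cell types, and chicken red cells and thrombocytes are nucleated and can contribute RNA. Where a gene is lower in PBMC, fewer cells of a type that holds its RNA and less RNA per cell cannot be told apart.

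The proteasome is the barrel-shaped protease that degrades most short-lived and damaged proteins of the cytoplasm and nucleus. Its core is built of alpha rings, which gate the channel, and beta rings, which carry the cutting sites. Regulatory caps hold ATPases that unfold the substrate and further subunits that bind it and strip off its ubiquitin. Ubiquitin reaches a protein through a cascade of an activating enzyme (E1), a conjugating enzyme (E2) and a ligase (E3), and the E2 often sets which kind of chain is built. In mammals, maturing red cells use this system to clear proteins and organelles while a few E2 enzymes become abundant.

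Each level is the log2 of a signal over its array's 75th percentile, so that 0 is the level of that percentile, and differences are PBMC minus whole blood with the standard error (SE) of the fit. Levels of different genes come from different probes and are not set against each other. The 75th percentile lay between 663 and 846 signal units on the 8 arrays, and no spot was saturated. All 11 red cell markers were lower in PBMC, and their share of the summed signal was 0.252 to 0.592% in PBMC, against 1.57 to 1.70% in whole blood. T cell (5 of 5), B cell (3 of 3), monocyte (4 of 4) and thrombocyte markers (3 of 3) were higher in PBMC, while 2 of 4 heterophil markers were lower and the other 2 did not pass. Only 1 of 4 PBMC arrays had the globin HBZ well above background, and 1 of 4 whole blood arrays the B cell gene JCHAIN. These cell markers changed with the sample type, as the members below did, and their part in the members' differences was not tested. Each slide column held a single sample type, and the effects of both cannot be told apart.

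Most members were lower in PBMC. The test called 37 of 48 lower and 7 higher, and 4 missed the threshold (limma, Benjamini-Hochberg adjusted p under 0.05 over 33756 features, each a named gene or an unnamed probe), and all 48 were well above background on all 8 arrays. The array as a whole differed widely between the sample types: 79.1% of all features passed, 39.4% lower and 39.7% higher in PBMC. Among named genes 37.5% were lower and 42.2% higher. The share of members that passed in either direction was therefore no result in itself, while 77.1% of the members were lower. Their median difference was −0.97, against 0.00 over all features tested. Bright probes leaned the same way: among the 11456 features with a mean level above 0, a limit chosen after seeing the data that 44 of the 48 members exceed, 49.2% were lower, 31.5% were higher and the median difference was −0.43. The 2 groups of arrays did not overlap for 40 of 48 members, against 73.3% of all features.

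**Figure D1:**
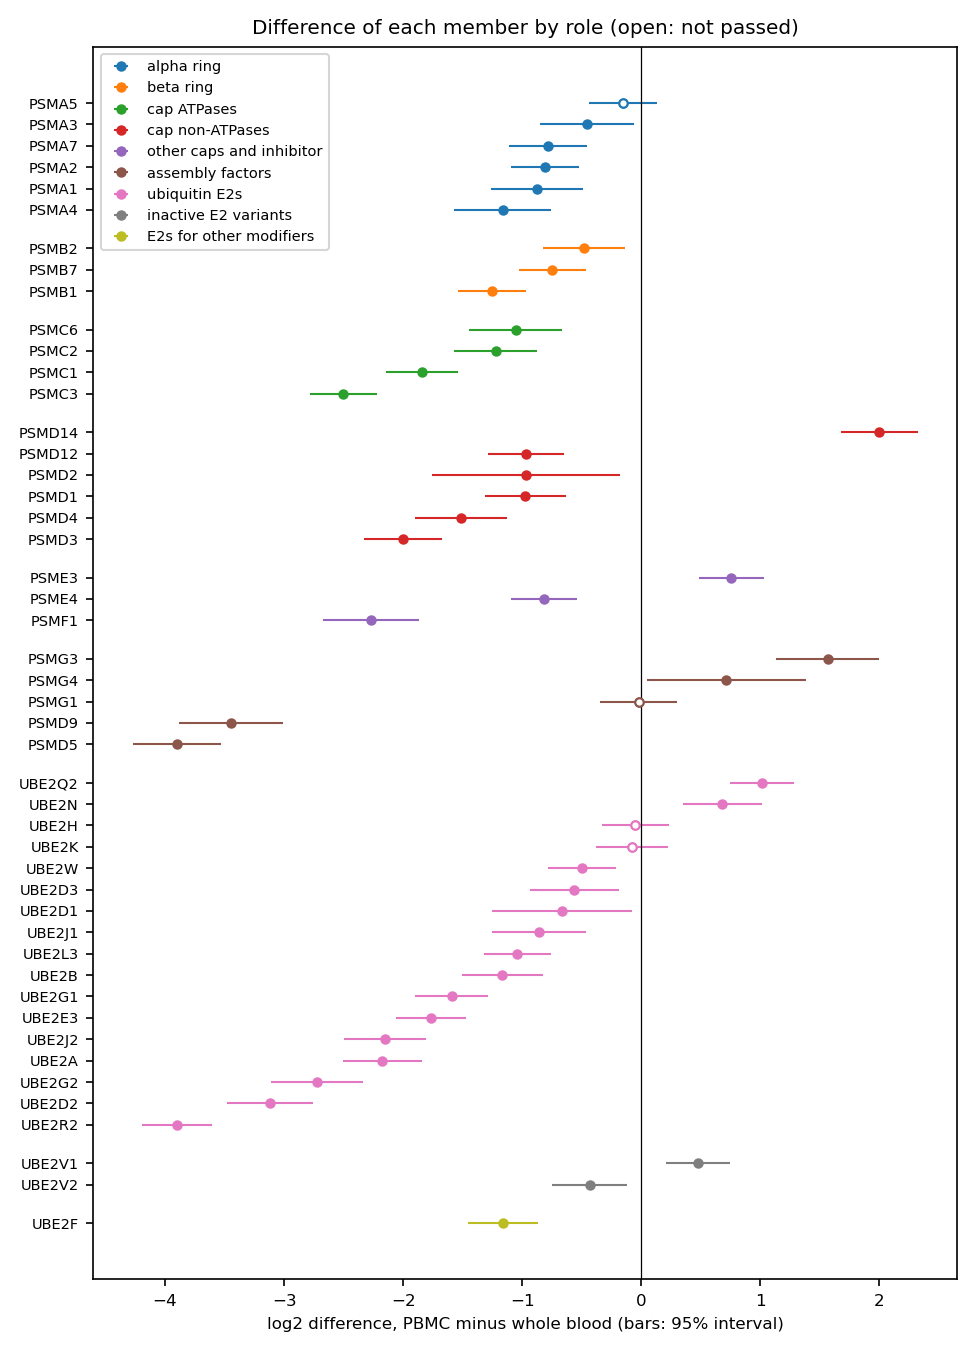
Log2 difference, PBMC minus whole blood, of 47 of the 48 genes (points) with its 95% interval (bars), grouped and coloured by role; open points did not pass the test. The points run between −3.90 for UBE2R2 and 2.00 for PSMD14, and 36 of them are called lower in PBMC.

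Sizes varied widely among the members. At least 2-fold lower levels in PBMC were found for 22 of 48, against 28.7% of all features, and at least 2-fold higher levels for 3 of 48 (PSMD14, PSMG3 and UBE2Q2), against 32.8%. The difference was negative in all 4 birds for 38 members and positive in all 4 for 7. The same shares over all features were not counted, so these counts are no result about the members. Within the proteasome 21 genes were lower, 4 higher and 2 did not pass, with a median of −0.97. Among the E2 genes 16 were lower, 3 higher and 2 did not pass, with a median of −1.04.

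In the core, 8 of 9 genes measured were lower in PBMC, and the median difference was −0.78. PSMA4, of the alpha ring, read 2.99, 3.43, 2.92 and 3.04 in PBMC of birds 1 to 4, against 4.40, 4.49, 4.24 and 3.90 in whole blood. The groups did not overlap, and the difference of −1.16 ± 0.18 was the largest of the 6 alpha genes measured (limma, adjusted p = 0.000268). The alpha genes PSMA1 (−0.88 ± 0.17), PSMA2 (−0.81 ± 0.13) and PSMA7 (−0.78 ± 0.14) fell by similar amounts. PSMA3 differed by −0.45 ± 0.17 with overlapping groups (adjusted p = 0.0377 without a block), and by −0.72 to −0.30 in the 4 birds. With the bird as a block, which pairs the samples of a bird, its adjusted p was 0.0202 (limma). Without a block, its call was lost without any of PBMC replicates 2, 3 and 4 or whole blood replicates 1 and 2 (−0.46 to −0.36). It was also lost in each slide row alone (−0.55 and −0.36). PSMA5 was the core gene that did not pass, at −0.16 with a 95% interval of −0.44 to 0.13.

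All 3 beta ring genes measured were lower. PSMB1, a structural beta subunit, read 3.30, 3.09, 3.09 and 3.28 in PBMC, against 4.44, 4.57, 4.38 and 4.37 in whole blood. Every PBMC array thus lay below every whole blood array, with a difference of −1.25 ± 0.13 (adjusted p = 1.64e-05). PSMB7, a subunit with a cutting site, differed by −0.75 ± 0.12 (adjusted p = 0.000410) and PSMB2 by −0.48 ± 0.15 (adjusted p = 0.0158), both without overlap. With quantile scaling both calls were lost (−0.25 and −0.17), and with cyclic loess that of PSMB2 (−0.21). The call of PSMB2 was also lost in slide row 2 alone (−0.38). The immune-type subunits PSMB8, PSMB9 and PSMB10 had no matched probe and were not analysed here.

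The 4 ATPases of the cap that were measured were all lower and all by at least 2-fold, with a median of −1.53. The ATPase genes PSMC4 and PSMC5 had no matched probe and were not analysed here. PSMC3 read 2.71, 2.52, 2.76 and 2.78 in PBMC, against 5.23, 5.16, 5.13 and 5.26 in whole blood. The groups lay far apart, the difference being −2.50 ± 0.12, or 5.67-fold lower (limma, adjusted p = 4.66e-07), and it ranged over the birds between −2.64 and −2.38. PSMC1, whose tail helps to open the gate of the core, read 4.59, 4.39, 4.51 and 4.66 in PBMC, against 6.35, 6.26, 6.58 and 6.33 in whole blood. It was 3.58-fold lower (−1.84 ± 0.13, adjusted p = 2.34e-06). PSMC2 (−1.22 ± 0.16) and PSMC6 (−1.06 ± 0.17) were lower by 2.34-fold and 2.08-fold, again without overlap.

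The measured cap subunits that are not ATPases went in both directions, 5 lower and 1 higher. PSMD3, a scaffold of the lid, read 4.08, 3.99, 3.76 and 3.90 in PBMC, against 6.02, 5.66, 6.0 and 6.05 in whole blood, and was 4.00-fold lower (−2.0 ± 0.15, adjusted p = 2.36e-06). PSMD4, a receptor for ubiquitin chains, read 0.06, −0.12, 0.37 and 0.26 in PBMC, against 1.77, 1.48, 1.91 and 1.46 in whole blood (−1.51 ± 0.17, adjusted p = 3.18e-05). Neither gene had overlapping groups.

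PSMD14 was the exception among the 10 measured cap genes that match the name rule. It encodes the metalloprotease that cuts ubiquitin chains off the substrate before degradation. It read 0.92, 0.71, 1.10 and 1.04 in PBMC, against −0.89, −1.11, −1.20 and −1.03 in whole blood. All PBMC arrays lay above all whole blood arrays, and the difference of 2.00 ± 0.14 (4.00-fold higher, adjusted p = 2.11e-06) was the highest of the 48 members. The gene had a single probe, so no other probe could be set beside it.

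PSMD1 and PSMD2, large scaffolds of the cap base, both differed by −0.97, yet with different spread. PSMD2, by its brightest probe, read 1.63, 1.22, 2.55 and 1.74 in PBMC, against 2.66, 2.00, 3.39 and 2.97 in whole blood. In both sample types bird 2 was lowest and bird 3 highest, so the groups overlapped although each bird was lower in PBMC by 0.78 to 1.22. Without a block in the fit, its adjusted p was 0.0288 (SE 0.35), against 0.000260 for PSMD1 (SE 0.15). With the bird as a block, which pairs the samples of a bird, the adjusted p was 0.000506 for PSMD2 and 0.000383 for PSMD1 (limma). Without a block, the call of PSMD2 was lost when any of PBMC replicates 1, 2 and 4 or whole blood replicates 3 and 4 was left out (differences of −0.95 to −0.76). It was also lost with quantile (−0.60) and cyclic loess scaling (−0.64) and in each slide row alone (−1.0 and −0.93). These losses are those of the brightest probe, while 8 of 8 probes of the gene were lower. Its other probes had an SE of 0.13 to 0.22. The mean of its probes differed by −1.13 (limma, adjusted p = 5.14e-05).

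Alternative caps and the inhibitor gave 2 lower genes and 1 higher. PSMF1, an inhibitor of the core in biochemical assays, read 3.37, 2.92, 3.23 and 2.86 in PBMC, against 5.32, 5.11, 5.67 and 5.35 in whole blood, and was 4.82-fold lower without overlap (−2.27 ± 0.18, adjusted p = 3.45e-06). PSME4, a single-chain cap of the nucleus, read −1.0, −0.90, −1.01 and −0.86 in PBMC, against 0.02, −0.18, −0.18 and −0.19 in whole blood (−0.81 ± 0.12, adjusted p = 0.000219). PSME3, a nuclear cap that works without ATP, was 1.69-fold higher by its brightest probe (0.76 ± 0.12, adjusted p = 0.000308). Its other probes differed by 0.14, −0.93 and −0.94, so the direction depends on the probe. The mean of all 4 probes differed by −0.24 and did not pass. No probe was matched to PSME1 or PSME2, which were not analysed here.

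Genes for assembly factors spread the most, and their median difference of −0.02 hides opposite members. PSMD5, a chaperone of the cap base, read 1.72, 1.27, 1.55 and 1.58 in PBMC, against 5.68, 5.39, 5.50 and 5.14 in whole blood. It was 14.9-fold lower (−3.90 ± 0.17, limma, adjusted p = 2.49e-07), with differences between −4.12 and −3.56 over the birds. PSMD9, which also escorts the cap ATPases during assembly, read 1.73, 1.66, 0.98 and 1.46 in PBMC, against 4.65, 4.98, 5.10 and 4.89 in whole blood. The groups of neither gene overlapped, and PSMD9 was 10.9-fold lower (−3.45 ± 0.19, adjusted p = 7.20e-07).

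The chaperones that build the core did not share that direction. PSMG3 read 1.64, 1.11, 0.96 and 0.95 in PBMC, against −0.46, −0.26, −0.64 and −0.25 in whole blood, and was 2.96-fold higher without overlap (1.57 ± 0.19, adjusted p = 5.42e-05). PSMG4 read 3.35, 2.66, 3.48 and 2.93 in PBMC, against 2.35, 2.09, 3.18 and 1.94 in whole blood. Here the groups overlapped, and the adjusted p was 0.0495 without a block (0.71 ± 0.30). Each bird was higher in PBMC, by 0.31 to 1.00, and with the bird as a block the adjusted p was 0.00570 (limma). Without a block, the call was lost in the authors' values (0.59) and in slide row 2 alone (0.65). It was also lost without any of PBMC replicates 1, 3 and 4 or whole blood replicates 1, 2 and 4 (0.57 to 0.77). PSMG1 did not pass, at −0.02 with a 95% interval of −0.35 to 0.30.

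**Figure D2:**
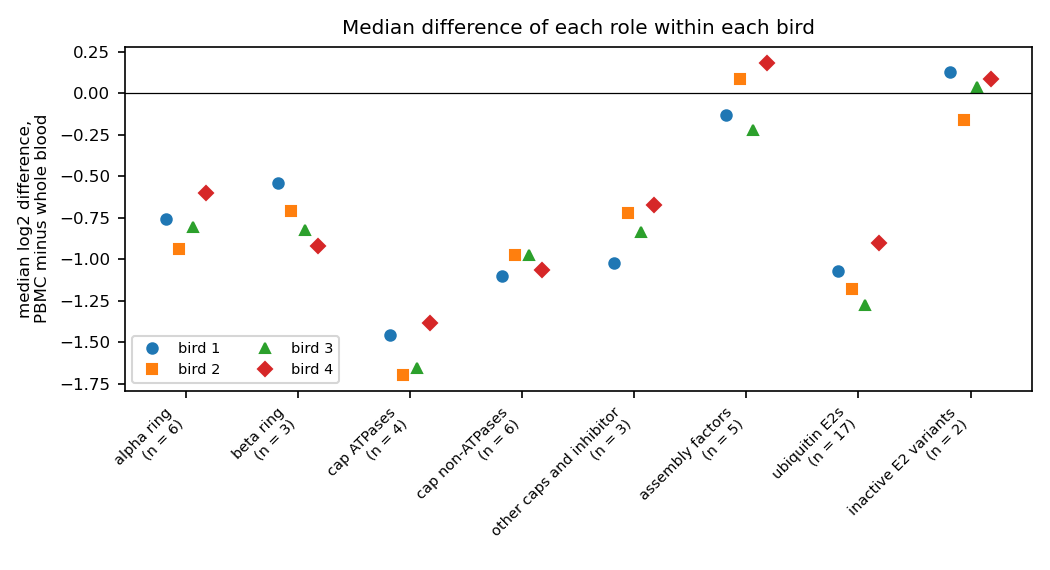
Median log2 difference, PBMC minus whole blood, of 8 roles (columns, with the number of genes) within each of the 4 birds (symbols). The cap ATPases lie between −1.70 and −1.39, the alpha ring between −0.94 and −0.60, and the assembly factors between −0.22 and 0.18.

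Within birds the cap ATPases and the alpha ring can be set side by side. The median over the cap ATPases was −1.46, −1.70, −1.66 and −1.39 in birds 1 to 4, and that over the alpha ring −0.76, −0.94, −0.81 and −0.60. The ATPases thus lay below the alpha ring in 4 of 4 birds. This is a description of 4 and 6 genes, and the difference between roles was not tested.

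The 17 ubiquitin E2 genes had a median difference of −1.04, with 13 called lower in PBMC, 2 higher and 2 in neither direction. UBE2R2, an E2 that extends ubiquitin chains with cullin ligases, read 1.96, 1.71, 1.75 and 1.74 in PBMC, against 5.85, 5.62, 5.72 and 5.60 in whole blood. It was 15-fold lower (−3.90 ± 0.13, limma, adjusted p = 1.23e-07), and the 4 birds lay between −3.97 and −3.86. UBE2R2 ranked 753 from the lowest difference among 33756 features and 118 among 5998 named genes, so many other features fell further.

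UBE2D2, a general E2 that serves many RING ligases, read 0.40, 0.09, 0.01 and 0.07 in PBMC, against 3.10, 3.48, 3.41 and 3.05 in whole blood. It was 8.69-fold lower without overlap (−3.12 ± 0.16, adjusted p = 5.20e-07). Its close relatives UBE2D1 and UBE2D3, named here after their values were seen, differed by −0.67 ± 0.26 and −0.56 ± 0.16. UBE2D1 had overlapping groups (adjusted p = 0.0385 without a block), while with the bird as a block its adjusted p was 0.00773 (limma). Without a block, its call was lost without any of PBMC replicates 1, 2 and 4 or whole blood replicates 1 and 3 (−0.70 to −0.43). It was also lost with quantile (−0.47) and cyclic loess scaling (−0.48), and in slide row 1 alone (−0.45). UBE2D3 read 4.03, 3.69, 3.68 and 3.96 in PBMC, against 4.53, 4.34, 4.64 and 4.11 in whole blood (adjusted p = 0.0108). Its call by this brightest probe was lost with quantile (−0.05) and cyclic loess scaling (−0.05), and in slide row 1 alone (−0.40). All 4 probes of UBE2D3 were called lower without a block, at −1.47, −1.22, −0.60 and −0.56. The mean of these probes differed by −0.97 (limma, adjusted p = 0.000491). All 3 probes of UBE2D1 were called lower too, at −0.93 to −0.47. How far probes of these relatives bind each other's RNA was not tested, and the difference between the genes was not tested.

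UBE2G2, which serves the degradation of misfolded proteins of the endoplasmic reticulum, read 2.27, 1.73, 1.98 and 2.31 in PBMC, against 4.71, 4.68, 4.77 and 5.03 in whole blood, and was 6.61-fold lower (−2.72 ± 0.17, adjusted p = 1.16e-06). UBE2A, which acts in DNA damage tolerance and on histones, read 1.45, 1.32, 1.40 and 0.94 in PBMC, against 3.47, 3.43, 3.50 and 3.41 in whole blood. It was 4.51-fold lower (−2.17 ± 0.15, adjusted p = 1.63e-06), and neither gene had overlapping groups. The other 9 ubiquitin E2 genes called lower differed by −2.15 to −0.50.

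**Figure D3:**
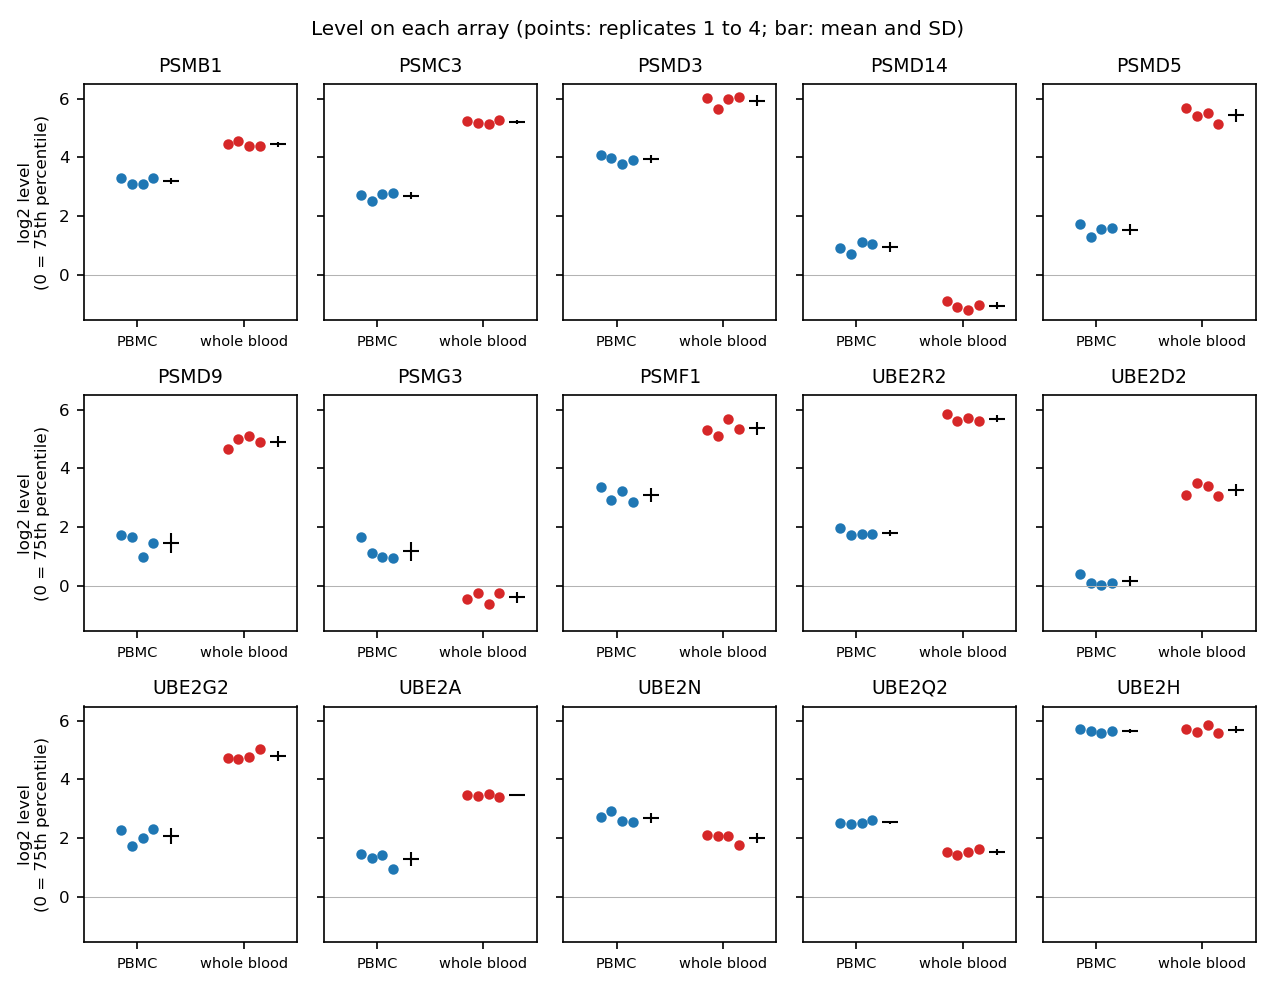
Log2 level on each array (0 is the 75th percentile of the array) of 15 genes, PBMC in blue on the left and whole blood in red on the right of each panel; points are replicates 1 to 4 and bars the mean with its SD (n = 4). PSMD14, PSMG3, UBE2N and UBE2Q2 lie higher in PBMC, UBE2H overlaps between the groups, and the other 10 genes lie lower in PBMC.

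UBE2Q2 and UBE2N were the ubiquitin E2 genes that were higher in PBMC. UBE2Q2 read 2.51, 2.48, 2.51 and 2.61 in PBMC, against 1.51, 1.42, 1.51 and 1.63 in whole blood, and was 2.01-fold higher (1.01 ± 0.12, adjusted p = 4.37e-05). UBE2N, which builds chains used in immune signalling and DNA repair, read 2.70, 2.90, 2.57 and 2.53 in PBMC, against 2.09, 2.06, 2.07 and 1.75 in whole blood. The groups of neither gene overlapped, and UBE2N was 1.60-fold higher (0.68 ± 0.15, adjusted p = 0.00204). In slide row 2 alone (birds 1 and 3) UBE2N did not pass, at 0.56.

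UBE2H and UBE2K did not pass. UBE2H, an E2 that becomes abundant in maturing red cells of human and mouse, read 5.70, 5.66, 5.56 and 5.63 in PBMC, against 5.71, 5.62, 5.85 and 5.58 in whole blood. Its groups overlapped, and the 95% interval of its difference ran between −0.33 and 0.23 (−0.05 ± 0.12, adjusted p = 0.715). The other probe of UBE2H differed by 0.29 and did not pass. By their brightest probes the red cell markers fell by 1.76 to 6.58 on the same scale. Over all their probes the differences ran between −7.32 (HBE1) and −1.33 (HBBA). Which cells hold the UBE2H RNA was not tested. With other scalings UBE2H was higher in PBMC, by 0.37 (quantile) and 0.61 (cyclic loess). UBE2K differed by −0.08, with a 95% interval of −0.38 to 0.23, and by 0.36 and 0.28 with those scalings, of which it passed with quantile.

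The inactive E2 variants UBE2V1 and UBE2V2, which lack the catalytic cysteine and pair with UBE2N, were called in opposite directions by their brightest probes. UBE2V1 read 3.07, 3.11, 3.16 and 3.08 in PBMC, against 2.69, 2.69, 2.49 and 2.63 in whole blood (0.48 ± 0.12, adjusted p = 0.00455). UBE2V2 differed by −0.43 ± 0.14 (adjusted p = 0.0176), and without whole blood replicate 2 it did not pass (−0.39). Both calls rest on the choice of probe. The other probes of UBE2V2 were all called higher, at 1.20, 0.63 and 0.51, so only its brightest probe was lower. Those of UBE2V1 both differed by −0.11 and did not pass. The mean of the probes gave 0.09 for UBE2V1, which did not pass. For UBE2V2 that mean was higher in PBMC, by 0.47 (limma, adjusted p = 0.00788). By the brightest probe neither gene passed in a slide row alone.

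UBE2F, one of the E2 enzymes for the ubiquitin-like protein NEDD8, which activates cullin ligases, read 2.85, 2.79, 2.87 and 2.99 in PBMC, against 3.99, 3.88, 4.21 and 4.07 in whole blood. It was 2.24-fold lower without overlap (−1.16 ± 0.13, adjusted p = 2.96e-05). UBE2O and UBE2L6, which had no matched probe, were not analysed here.

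Several probes were available for 34 of the 48 members, 130 probes in all for the 48. In 26 of the 34 every probe was lower in PBMC, in 4 no probe passed, and in 2 (PSME3 and UBE2V2) probes passed in opposite directions. In UBE2N and UBE2V1 some probes were higher and the others did not pass, so every probe was called higher in 0 of the 34. The same counts over all genes with several probes were not made, so these counts are no result about the members. The probes of 23 genes spanned less than 0.5. Both probes of UBE2R2 (−3.98 and −3.90), the 3 probes of PSMD5 (−3.90 to −3.79) and both probes of PSMD9 (−3.68 and −3.45) lay close together. The 4 probes of PSMC3 spanned −2.74 to −1.62. PSMD14, PSMG3, PSMG4, UBE2Q2, UBE2D2, UBE2G2, UBE2A and PSMF1 were among the 14 genes with 1 probe. The 3 members at least 2-fold higher in PBMC (PSMD14, PSMG3 and UBE2Q2) thus rest on 1 probe each.

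**Figure D4:**
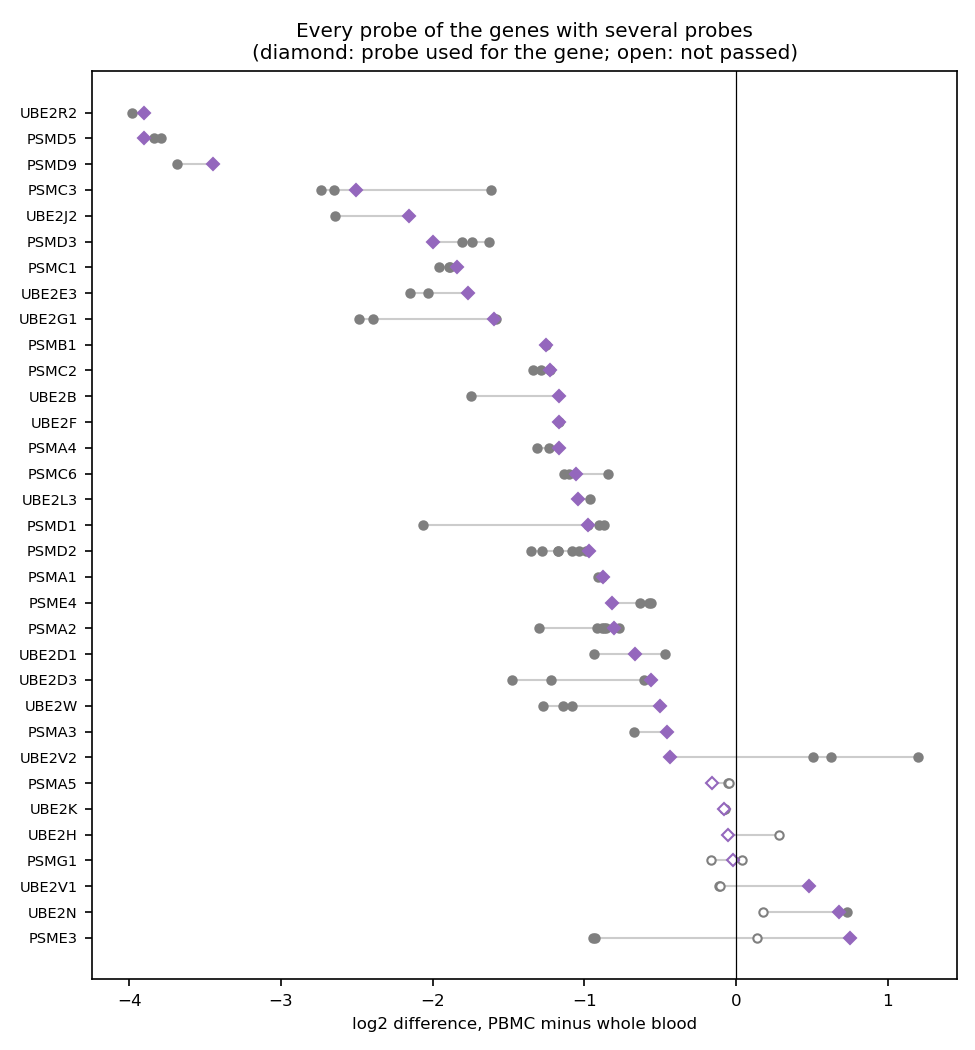
Log2 difference, PBMC minus whole blood, of every probe of 33 genes with several probes; diamonds mark the probe used for the gene, circles the others, and open symbols did not pass. In 25 genes every probe lies below 0 and passed, while PSME3 and UBE2V2 have filled symbols on both sides of 0.

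Scaling between arrays set how many of the smaller differences passed. With quantile normalisation 28 of 48 members were lower and 10 higher, against 40.2% and 39.1% of all features, and with cyclic loess 30 were lower and 8 higher, against 41.7% and 37.9%. Among the features with a mean level above 0, the lower and higher shares were 42.1% and 37.4% with quantile normalisation and 42.5% and 37.2% with cyclic loess. The median over all features moved by −0.10 with cyclic loess and by −0.15 in the authors' values. In the core the count of lower genes fell to 3 with quantile normalisation and 5 with cyclic loess, and PSMA3 turned to 0.0758 and 0.10 without passing. PSMA1 (−0.36 and −0.28) and PSMB2 lost their calls with both, and PSMA7 (−0.32) and PSMB7 with quantile normalisation alone. PSMA5 turned to 0.33 and 0.26, and it passed with quantile normalisation. In the cap 8 genes were lower with both. UBE2W, by its brightest probe, lost its call with both (−0.09 and −0.16). That probe also lost its call in each slide row alone, with the scaling of the main test (−0.53 and −0.47). With the scaling of the main test all 4 probes of UBE2W were called lower, at −1.27 to −0.50, the brightest at −0.50. All 4 ATPases measured stayed lower, as did PSMD5 (−3.52 and −3.45), UBE2R2 (−3.51 and −3.43) and UBE2D2 (−2.87 and −2.86). PSMD14 stayed higher (2.03 and 1.98).

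**Figure D5:**
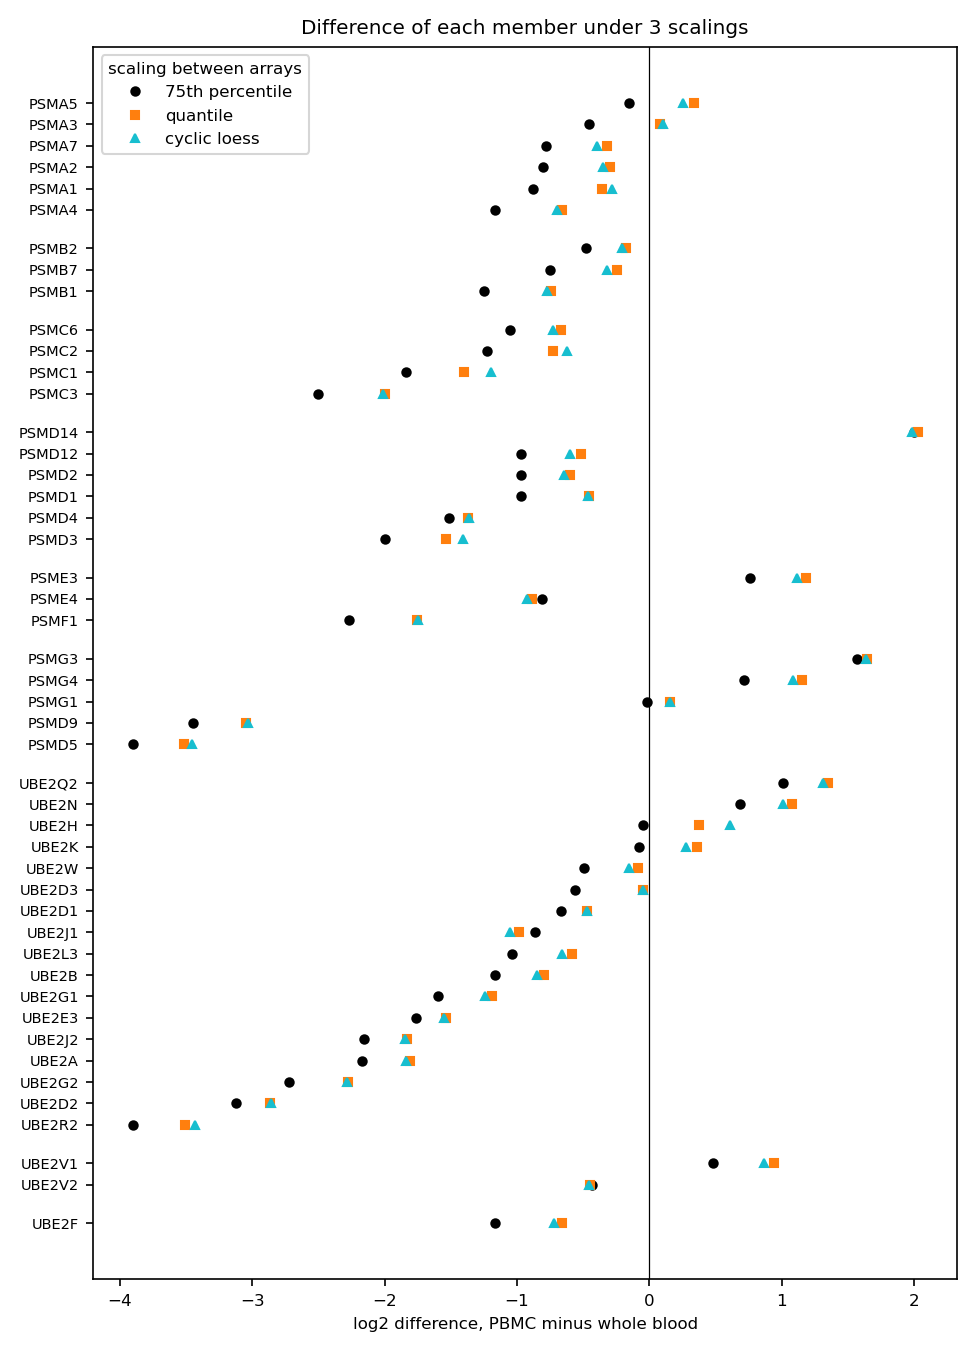
Log2 difference, PBMC minus whole blood, of 47 of the 48 genes under 3 scalings between arrays (symbols), in the same order by role as in the plot of differences with intervals. Most genes lie further to the right with quantile and cyclic loess scaling, PSMA3, PSMA5, PSMG1, UBE2H and UBE2K cross 0 with both, and PSMD14 stays near 2.00.

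Other genes of the pathway were taken from 7 lists, of which 26 genes were matched and tested. Of all features 39.4% were lower and 39.7% higher in PBMC. The lists are short and were chosen with earlier results known, so counts over them are no result about the pathway. The ubiquitin genes UBB, which encodes a chain of ubiquitin units, and RPS27A, which fuses ubiquitin to a ribosomal protein, were higher in PBMC (0.72 ± 0.17, adjusted p = 0.00352, and 0.79 ± 0.17, adjusted p = 0.00182). The 3 probes of RPS27A spanned −0.86 to 0.79, and it did not pass when they were averaged. RPS27A also did not pass in slide row 1 alone (0.56), nor UBB in slide row 2 alone (0.67). Of 4 E1 genes 3 did not pass, and ATG7, which activates the ubiquitin-like proteins of autophagy, was higher with overlapping groups (0.57 ± 0.19, adjusted p = 0.0235). The call of ATG7 was lost with quantile (0.38) and cyclic loess scaling (0.27) and in the authors' values (0.34). It was also lost with the mean of its probes (0.20) and in slide row 2 alone (0.38).

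Partners that bind the proteasome went both ways. AKIRIN2, which guides proteasomes into the nucleus, was lower (−1.72 ± 0.15), as were the ubiquitin receptor ADRM1 (−1.38 ± 0.12) and PAAF1. The small cap subunit SHFM1 (1.25 ± 0.31) and the deubiquitinase UCHL5 (1.17 ± 0.14) were higher, each by 1 probe. The call of SHFM1 was lost in slide row 1 alone (1.44). All 4 genes for shuttles and the segregase that deliver substrates were lower. RAD23B, a shuttle, read 2.51, 2.32, 2.39 and 2.51 in PBMC, against 5.61, 5.33, 5.58 and 5.0 in whole blood (−2.95 ± 0.16, limma, adjusted p = 7.27e-07). UFD1L, a cofactor of the segregase VCP, differed by −2.82 ± 0.17, with 3 whole blood arrays since 1 spot was removed as an outlier. The call of VCP (−0.77) was lost with quantile and cyclic loess scaling.

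All 3 regulators of proteasome genes were lower. NFE2L2, a transcription factor of the oxidative stress response, read 3.19, 3.01, 2.85 and 3.08 in PBMC, against 6.07, 6.02, 6.41 and 5.57 in whole blood, and was 7.90-fold lower without overlap (−2.98 ± 0.19, adjusted p = 1.21e-06). NGLY1, which in mammals processes the factor NFE2L1, differed by −1.61 ± 0.16, and NFE2L1, which restores proteasome gene expression when proteasomes are inhibited, by −1.22 ± 0.17. The 4 cullin ligase genes were lower, RNF7 by −2.43 ± 0.27 and SKP1 by −0.57 ± 0.16. The calls of SKP1 and RBX1 were lost with quantile (−0.17 and 0.04) and cyclic loess scaling (0.10 and −0.0049), where SKP1 turned with cyclic loess and RBX1 with quantile. Of 3 other E2-like genes CDC34, the close relative of UBE2R2, was 3.91-fold lower (−1.97 ± 0.19, adjusted p = 1.10e-05), AKTIP differed by −0.58 ± 0.20, a call lost with quantile (−0.27) and cyclic loess scaling (−0.31), and TSG101 did not pass.

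The residual red cell signal varied among the PBMC arrays. The share of the red cell markers was 0.458, 0.529, 0.252 and 0.592% in PBMC of birds 1 to 4, a 2.35-fold range between the highest and the lowest array. The share sums unlogged signals, so the brightest markers weigh most. Single red cell markers spread unequally in log2 level, TFRC the least (−2.43 to −1.97) and HBAD the most (5.49 to 7.56). On the same arrays UBE2R2 ranged over 1.19-fold, PSMC3 over 1.20-fold and PSMD5 over 1.37-fold, with a median of 1.27-fold over the 48 members. The brightest probe of PSMD2, between 1.22 and 2.55 in log2 level, had a wide range of its own. The PBMC array highest in UBE2R2 was that of bird 1, and the one highest in the red cell share that of bird 4. UBE2R2, PSMC3 and PSMD5 were lowest in PBMC of bird 2. PSMD9 (0.98), PSMD3 (3.76) and UBE2D2 (0.01) were lowest in PBMC of bird 3, as the red cell share was. Not every red cell marker followed the share. EPB41 was lowest in PBMC of bird 4 (−0.55) and highest in that of bird 1 (0.37). SLC25A37 was lowest in PBMC of bird 2 (−4.41), and the other markers in that of bird 3. These members and markers were picked after their values were seen, and the lowest array of the other members was not counted. A share of summed signal and the scaled level of a probe are unlike measures, and the same range over all features was not computed. What part of the members' signal in PBMC came from red cells was not tested.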

How the data were processed

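PBMC and whole blood of the same birds were measured on 8 single-colour Agilent arrays. Per the file headers, the deposited spot intensities had been corrected for background and for spatial trends by Agilent Feature Extraction 10.7.3.1 (10.7.1.1 per the submitters' processing notes), with no normalization between arrays. The deposited table of log2 values (46154 features) equalled the log2 median signal minus 1 constant per array. Here log2 processed intensity minus the array's 75th percentile was used, without control and outlier spots, and the brightest probe stood for a gene. Probes were named by RefSeq accession, gene number or symbol (18845 of 60539 probes) through a RefSeq table of assembly GRCg7b. Since the headers name another build (galGal3), no coordinates are given. A further 24 reference genes that match the name rule had no matched probe and were not analysed here.

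A feature entered the test if every array of PBMC, or every array of whole blood, had it well above background (33756 features, of which 88 lacked a value on some array). The test was limma 3.58.1 (lmFit and eBayes, R 4.3.3) with Benjamini-Hochberg adjusted p-values, a threshold of 0.05 and no block. The script was tested on simulated data. Replicate numbers mark birds that gave both samples, per the design text, and so pair them. Deviations from the group means correlated at 0.435, 0.478, 0.359 and 0.417 within birds, and at most 0.0439 between birds. Members and lists were chosen with earlier results of these data known, so counts and medians over them carry no test. Within each role the rule named up to 4 genes with the largest change past the threshold in each direction, a set named whatever their result (PSMC3, PSMD14, UBE2R2, UBE2D2, UBE2O, UBE2H, UBE2L6, PSMB8, PSMB9, PSMB10 and PSME1 to PSME4), and up to 2 per pathway list and direction. Members outside the rule that are named were chosen after their values were seen. Some genes that the rule takes are left out of the text and figures. Alternatives were normexp (offset 50, on the median signal), the authors' values, quantile and cyclic loess scaling, other filters, the mean of a gene's probes, the bird or slide row as a block, each slide row alone, and leaving out each array. Each row of the single slide held 2 birds. The number of arrays limits the precision.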

Additional observations from a re-analysis of the deposited data

Results flagged for a closer look

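In 5 of 96 groups of 4 arrays, 1 array stood apart from the other 3 by Dixon's test, where chance at 1 in 20 gives 4.8. UBE2R2 was highest in PBMC replicate 1 (1.96, the others 1.71 to 1.75), and UBE2L3 was lowest in PBMC replicate 2 (2.14, the others 2.34 to 2.38). In whole blood PSMD3 was lowest in replicate 2 (5.66, the others 6.0 to 6.05), PSME4 was highest in replicate 1 (0.02, the others −0.19 to −0.18) and UBE2N was lowest in replicate 4 (1.75, the others 2.06 to 2.09). Leaving out each of these arrays changed the call of none of these 5 genes.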

How the results depend on the processing

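Of the 48 members, all 48 kept direction and call with normexp, with the stricter filter, with the slide row as a block and with the bird as a replicate block. The replicate block gave 27762 features and left the member counts at 21 lower and 4 higher proteasome genes and 16 lower and 3 higher E2 genes. Cyclic loess kept 40 calls and quantile scaling 36. With quantile scaling E2 genes higher in PBMC numbered 5, and PSMA3 (0.0758), PSMA5 (0.33), UBE2H (0.37), UBE2K (0.36) and PSMG1 (0.15) turned positive. With cyclic loess PSMA3 (0.10), PSMA5 (0.26), UBE2H (0.61), UBE2K (0.28) and PSMG1 (0.15) did, and the differences of PSMC1 (−1.20), PSMC2 (−0.62), PSMD3 (−1.41) and PSMA1 (−0.28) moved by over 1.5-fold. The mean of a gene's probes turned PSME3 (−0.24) and UBE2V2 (0.47). Slide row 1 alone kept 41 calls and slide row 2 alone 40. In slide row 2 alone 1 E2 gene was higher. The median over proteasome and E2 genes was −1.13 and −1.20 in the authors' values, −0.52 and −0.66 with quantile scaling and −0.60 and −0.72 with cyclic loess, and −0.89 over proteasome genes in slide row 1 alone. The cause of these changes was not tested. Leaving out each array in turn gave 19 to 20 lower and 3 to 4 higher proteasome genes, 15 to 16 lower and 3 higher E2 genes and 25777 to 26374 features. The medians were then −0.97 to −0.83 and −1.07 to −0.99, and calls were lost only for PSMA3, PSMD2, PSMG4, UBE2D1 and UBE2V2. Without any filter PSMA3, PSMG4 and UBE2D1 lost their calls, where more features were tested.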
